A study of Homo sapiens with 6 samples.

Results

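CXCL8, CXCL10, CCL20, CCL5 and TNF are 5 inflammatory cytokine genes taken from the 14884 genes that could be named in the array data. CXCL8, CXCL10, CCL20 and CCL5 encode chemokines and TNF encodes tumour necrosis factor. Each gene was read from the probe with the highest mean over the 6 arrays. They were selected on their log2 difference between the groups, which was already known, so their values are given as a description and carry no test. The cells were THP-1, an established line that grows as monocyte-like leukaemia cells. One group had been transduced with the vector psi-LVRU6GP carrying a short hairpin RNA against RKIP, and the control group with the same vector left empty. Both groups were selected and kept in puromycin at 1.5 µg/mL, and each held 3 arrays labelled as biological replicates. RKIP, whose gene is PEBP1, binds the kinase RAF and limits its signalling to ERK. The control vector carried no hairpin, so effects of expressing any hairpin cannot be told apart from loss of RKIP. The labels name a single hairpin design and do not say whether the arrays came from separate transductions or from cultures of 1 transduced population, so p-values reflect array-to-array spread, part of which may be technical.

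Chemokines are small secreted proteins that steer the migration of leukocytes through G protein-coupled receptors. CXCL8, or interleukin 8, acts through CXCR1 and CXCR2 and attracts neutrophils; CXCL10 is induced by interferons and attracts T cells through CXCR3. CCL20 is the ligand of CCR6, and CCL5, also called RANTES, is a ligand of CCR1. TNF is released by monocytes and macrophages and signals through TNFRSF1A and TNFRSF1B. Transcription of all of them is known to be driven by NF-kB in activated monocytes, and the CXCL8 and TNF mRNAs are known to be turned over quickly through AU-rich elements.

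The promoter sequences are shown because the 5 genes share a known regulator. Their rise in the same group is how they were selected, and the part of NF-kB in it was not tested. A sequence was found for 4 of the 5 genes, CXCL8, CXCL10, CCL20 and TNF. Each line gives the 250 bases before the RefSeq transcript start, 5′ to 3′ on the gene's strand, in GRCh38.p14. The windows are chr4:73740319-73740568 (plus strand) for CXCL8, chr4:76023498-76023747 (minus strand) for CXCL10, chr2:227813592-227813841 (plus strand) for CCL20 and chr6:31575315-31575564 (plus strand) for TNF. Capitals mark matches on either strand to 1 of 2 NF-kB (kB) motifs, GGGNNNNNCC and GGNATTTCC, which can overlap each other.
CXCL8: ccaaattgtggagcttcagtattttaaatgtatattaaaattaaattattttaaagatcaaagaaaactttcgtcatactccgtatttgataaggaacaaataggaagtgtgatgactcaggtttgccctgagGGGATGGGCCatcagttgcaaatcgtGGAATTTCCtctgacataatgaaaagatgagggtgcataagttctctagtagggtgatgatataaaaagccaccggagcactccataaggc
CXCL10: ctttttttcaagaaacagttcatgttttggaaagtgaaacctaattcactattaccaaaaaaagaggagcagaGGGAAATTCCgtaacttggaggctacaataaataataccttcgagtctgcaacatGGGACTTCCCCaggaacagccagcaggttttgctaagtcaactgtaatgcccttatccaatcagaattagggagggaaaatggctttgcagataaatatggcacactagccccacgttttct
CCL20: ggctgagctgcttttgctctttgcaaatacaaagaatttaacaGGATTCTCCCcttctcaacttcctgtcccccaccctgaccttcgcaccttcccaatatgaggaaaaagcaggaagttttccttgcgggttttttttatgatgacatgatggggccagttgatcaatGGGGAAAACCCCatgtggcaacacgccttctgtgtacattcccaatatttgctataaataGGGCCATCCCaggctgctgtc
TNF: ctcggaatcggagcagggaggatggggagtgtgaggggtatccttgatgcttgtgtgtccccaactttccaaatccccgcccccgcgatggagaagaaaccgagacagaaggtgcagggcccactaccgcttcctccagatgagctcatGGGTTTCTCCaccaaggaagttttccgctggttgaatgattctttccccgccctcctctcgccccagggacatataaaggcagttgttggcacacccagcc

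All 4 windows held a kB match. So did 54.8% of the 35116 promoters of the same length, because GGGNNNNNCC alone occurred in 54.4% of them, whereas GGNATTTCC occurred in 1.23%. CXCL8 carried GGAATTTCC from base 91 to base 83 before its start, and CXCL10 carried GGGAAATTCC from base 177 to base 168, which holds a GGNATTTCC match on the other strand. A second CXCL10 match, GGGACTTCCCC, lay from base 122 to base 112. In CCL20 the matches merged into GGGGAAAACCCC from base 81 to base 70, with others upstream and downstream. TNF had 1 match, GGGTTTCTCC, from base 101 to base 92.

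Other motifs differed between these promoters. The AP-1 motif TGANTCA occurred as TGACTCA in CXCL8, from base 137 to base 131, and in none of the other 3 windows (6.57% of all promoters held it). The interferon response motif GAAANNGAAA occurred as GAAAGTGAAA in CXCL10, from base 221 to base 212, and in none of the other 3 (3.02% of all promoters). A TATA motif, TATAAA, began 31 bases before the start in CXCL8 and 29 bases before it in both CCL20 and TNF, and 10.7% of all promoters held one. CXCL10 had no TATAAA in this window. A match describes letters of the reference sequence and not binding, which was not measured. The motifs were chosen with these sequences in view, so the shares of all promoters are a description and no measure of rarity.

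The labels were checked on the targeted gene and on lineage markers. PEBP1 was lower in RKIP shRNA cells, at 8.22 ± 0.04 against 9.68 ± 0.14 in control cells (log2 values, mean ± SD, n = 3 each), which left 36.4% of the control level. The myeloid markers SPI1, CD68 and MPO were present in control cells at 8.78, 7.83 and 12.76, while CD14 was dim at 2.77. Dim here means a group mean under 4.08, the median of all values in the table, where changes are compressed by background. CSF1R at 4.25 and S100A9 at 4.39 lay little above this mark in control cells, and FCN1 was at 5.10. LYZ, CD4, CST3 and TYROBP lay between 6.39 and 7.55. Of 11 measured monocytic markers 6 rose and 1 fell (limma, adjusted p under 0.05), 63.6% against 20.2% of all genes. As 10 of the 11 were not dim in both groups, the closer share is 29.0%, that of all such genes. The markers were chosen with earlier results of these data known, so nothing is read from this count. CD14, CSF1R, FCN1 and S100A9 did not pass. The list mean lay between log2 values of 6.64 and 6.76 in control arrays and of 7.28 and 7.35 in RKIP shRNA arrays. LYZ and TYROBP rose most, by 2.55 and 2.37, whereas the median change of the 11 was 0.26. MPO lost its call whichever array was left out (adjusted p up to 0.115) and CD4, the gene that fell, without control replicate 2 or 3 or RKIP shRNA replicate 1 (up to 0.059). The part of these marker changes in the cytokine values was not tested. In a bulk culture more cells of a type cannot be told apart from more RNA per cell. The list means of epithelial and T cell markers overlapped between the groups, at log2 values of 4.82 to 5.02 and 4.51 to 4.72 in control and 4.86 to 4.94 and 4.61 to 4.79 in RKIP shRNA arrays. Of 5 epithelial markers KRT18 fell by 0.29 (limma adjusted p = 0.022), though its second probe had a change of 0.02, and of 4 T cell markers CD5 rose by 0.39 (adjusted p = 0.049). KRT18 kept its call only when RKIP shRNA replicate 2 or 3 was the array left out (adjusted p up to 0.082 otherwise), and CD5 held its call only without control replicate 3 (up to 0.14 in the other fits). The 2 measured fibroblast markers had mean log2 values of 4.21 to 4.35 in control and 4.59 to 4.78 in RKIP shRNA arrays, of which FN1 rose and THY1 did not pass. The 2 measured B cell markers had 5.42 to 5.50 and 5.14 to 5.27, of which VPREB3 fell, a call that held only without control replicate 2 (adjusted p up to 0.10 in the other fits). The part of these lists in the cytokine values was likewise not tested.

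All 5 genes were higher in every RKIP shRNA array than in any control array, and CXCL8 changed most. Its log2 values in control replicates 1 to 3 were 4.75, 4.21 and 4.76, and in RKIP shRNA replicates 1 to 3 they were 7.51, 7.41 and 7.95. The lowest RKIP shRNA array thus lay 2.65 above the highest control array. The log2 change was 3.05 (SE 0.19 from limma), or 8.27-fold, which ranked 3 among all 14884 genes ordered from the largest rise. Single RKIP shRNA arrays stood 7.15-fold to 10.3-fold above the control mean. CXCL8 was little above the 4.08 mark in control cells and passed from percentile 43.2 to percentile 77.4 of all gene values.

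CXCL10 rose from a dim control level. Its log2 values were 3.30, 4.09 and 3.65 in the control arrays and 6.27, 5.87 and 6.10 in the RKIP shRNA arrays, in replicate order. The control mean was 3.68, below the 4.08 mark, so the fold rests on a dim value. The groups did not overlap, with a gap of 1.77. The log2 change was 2.40 (SE 0.20), or 5.28-fold, at rank 7 of the rises. The control arrays spread more than those of any other of the 5 genes, with an SD of 0.40 (n = 3).

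TNF lay between these and the remaining chemokines in the size of its change. Its log2 values were 6.18, 6.41 and 6.46 in control and 7.63, 7.50 and 7.79 in RKIP shRNA cells. Every RKIP shRNA array exceeded every control array by at least 1.04. The log2 change was 1.29 (SE 0.11), or 2.44-fold, at rank 29. TNF was the only 1 of the 5 genes with several array rows. Of its 8 rows, 7 held identical values, and these are no independent check; the other row gave a log2 change of 1.23.

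CCL5 was already far above the 4.08 mark in control cells, at percentile 86.2 of all gene values, and at percentile 91.7 in RKIP shRNA cells. Its log2 values were 8.47, 8.36 and 8.34 in control and 9.03, 8.98 and 9.07 in RKIP shRNA cells. These groups were separated by 0.51. The log2 change was 0.64 (SE 0.07), or 1.56-fold, at rank 290.

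CCL20 changed least. Its log2 values were 4.77, 4.78 and 4.72 in control and 5.27, 5.35 and 5.32 in RKIP shRNA cells, so the groups were apart by 0.49. The log2 change was 0.56 (SE 0.06), or 1.47-fold, at rank 420. The pooled SD within the groups was 0.04. CCL20 stood at percentile 45.9 of all gene values in control cells and at percentile 52.9 in RKIP shRNA cells. Its control mean was 4.76, below that of the T cell marker CD8A at 5.23. The T cell markers CD2, CD5 and LCK were lower than CCL20, at 4.66, 4.31 and 4.27 in control cells. The fold of CCL20 thus rests on low values, and clear expression is not read from it. The changes of CCL5 and CCL20 differed by about the size of their standard errors.

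**Figure D1:**
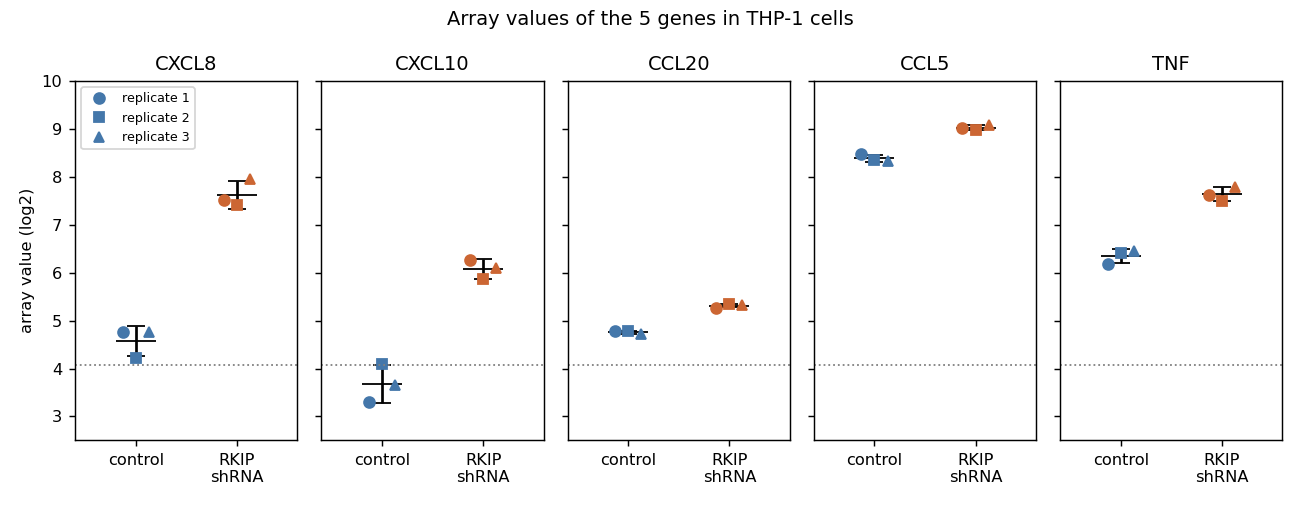
Array values (log2, vertical axis) of CXCL8, CXCL10, CCL20, CCL5 and TNF in control and RKIP shRNA cells. Each point is 1 array with its shape giving the replicate number, horizontal bars are group means, error bars are SD (n = 3), and the dotted line is the median of all values, 4.08. The groups are apart for each gene, by 2.65 in CXCL8 and by 0.49 in CCL20, and only the control mean of CXCL10 lies under the dotted line.

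The groups did not overlap for any of the 5 genes, with RKIP shRNA arrays higher, a separation that 19.8% of all genes showed in this direction. All 5 were also among the genes called higher across the table, as were 10.0% of all genes; since the contrast chose them, nothing is read from either count. Spread within groups differed among them: the pooled SD was 0.30 for CXCL8, 0.32 for CXCL10 and 0.15 for TNF, but 0.06 for CCL5 and 0.04 for CCL20, against a median of 0.12 over all genes. RKIP shRNA replicate 3 was the highest array for CXCL8, CCL5 and TNF, and replicate 1 for CXCL10. RKIP shRNA replicate 2 was the lowest for these 4 genes but the highest for CCL20. No such order held among the control arrays, where replicate 2 was the lowest for CXCL8 and the highest for CXCL10 and CCL20.

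None of 36 measured other chemokine ligands passed in either direction (limma, Benjamini-Hochberg adjusted p under 0.05), and 3 had an unadjusted p under 0.05. Over all genes 20.2% passed, but 23 of the 36 ligands were dim in both groups, and of all genes dim in both groups only 2.85% passed. The 13 ligands at or above the 4.08 mark in a group did not pass either, where 29.0% of all such genes did. The highest control mean among the 36 ligands was 5.50, and many genes behind the 29.0% were brighter. These shares are therefore not matched on level, and no lack of change is read from them. Changes of the ligands ran from -0.29 to 0.53 on the log2 scale with a median of 0.06, where the median of all genes was 0.02. CCL23, which like CCL5 binds CCR1, had the largest, 0.53 (SE 0.19, limma adjusted p = 0.094), between dim means of 2.93 and 3.47, followed by CCL2, a monocyte chemoattractant, at 0.41 (adjusted p = 0.061), also dim in both groups. CCL19, at 0.31 (adjusted p = 0.059), passed in the fit without control replicate 2, under quantile normalisation (adjusted p = 0.048) and with genes of a mean under 4.08 left out (adjusted p = 0.028).

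Other ligands of CXCR3 and CXCR2 did not pass. CXCL9 and CXCL11, which like CXCL10 bind CXCR3, had log2 changes of 0.09 (SE 0.09) and -0.18 (SE 0.13). CXCL2 and CXCL3, which like CXCL8 bind CXCR2, had changes of 0.19 (SE 0.08) and 0.15 (SE 0.08). Of these 4 genes, CXCL9 and CXCL3 were dim in both groups, where changes are compressed. CXCL11 at 5.19 and CXCL2 at 5.02 were above the 4.08 mark in control cells. That mark is no detection limit, since the T cell marker CD8A had a control mean of 5.23.

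**Figure D2:**
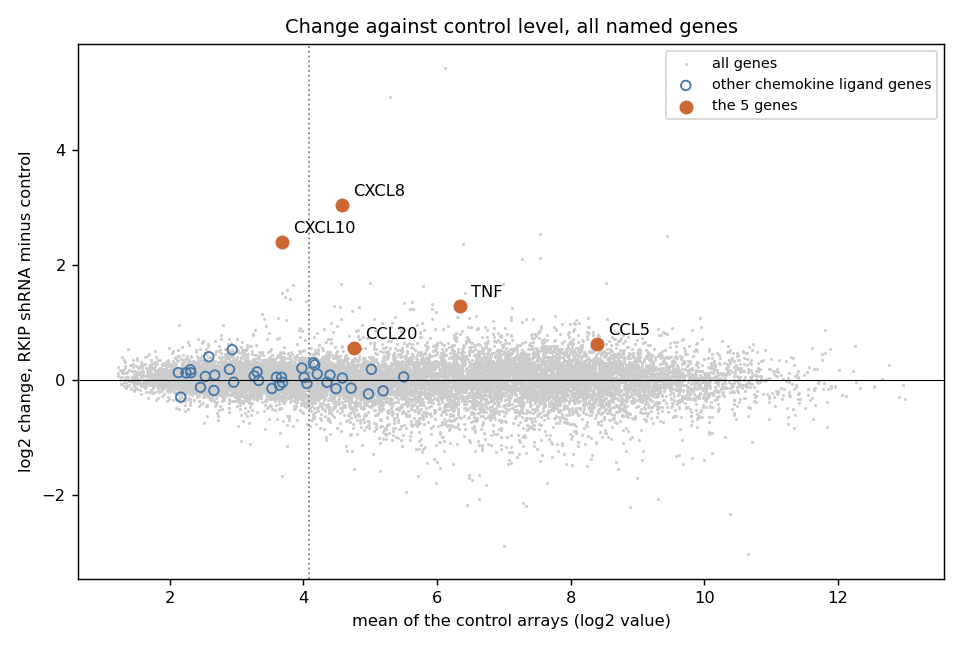
Log2 change, RKIP shRNA minus control (vertical axis), against the mean log2 value of the 3 control arrays (horizontal axis) for all 14884 genes. Filled points are the 5 genes, open circles the 36 other chemokine ligand genes, grey points all genes, and the dotted line is at 4.08. The open circles lie between -0.29 and 0.53, and CXCL8 at 3.05 and CXCL10 at 2.40 lie far above them.

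Among chemokine receptors 3 of 20 measured genes rose and none fell (limma, adjusted p under 0.05, median log2 change 0.07). That is 15% of them, against 20.2% of all genes passing in either direction. CCR1, a receptor of CCL5, rose by 0.55 (SE 0.10, adjusted p = 0.010), from 4.84 ± 0.18 to 5.39 ± 0.06 (SD, n = 3). CCR8, the receptor of CCL1, rose by 1.09 (SE 0.20, adjusted p = 0.010) from a dim control mean of 3.63. CXCR4, the receptor of CXCL12, rose by 0.26 (adjusted p = 0.031), but lost its call whichever array was left out, with adjusted p-values up to 0.091. The CXCL8 receptor gene CXCR1 had a change of 0.34 (adjusted p = 0.077) and CXCR2 of 0.07 (adjusted p = 0.79), both dim in both groups. CXCR3, the CXCL10 receptor gene, had a change of 0.08 (adjusted p = 0.68), and CCR6, the CCL20 receptor gene, was dim with a change of -0.10 (adjusted p = 0.63). The TNF receptor genes TNFRSF1A and TNFRSF1B had no named row and were not analysed here.

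Genes that act downstream of TNF receptors went both ways, with 2 of 16 measured members higher and 5 lower (limma, adjusted p under 0.05, median log2 change 0.01). Of all genes 10.0% were higher and 10.2% lower. None of the 16 was dim in both groups, and 43.8% of them passed, against 29.0% of genes not dim in both groups. RBCK1, a subunit of the linear ubiquitin ligase complex that acts at the TNF receptor, fell by 1.36 (SE 0.08, limma adjusted p = 0.00023), from 9.82 ± 0.05 to 8.46 ± 0.12 (SD, n = 3). RNF31, the catalytic subunit of the same complex, rose by 0.27 (adjusted p = 0.033), and the third subunit gene, SHARPIN, had a change of 0.28 that did not pass (adjusted p = 0.12). The adaptor gene TRAF5 fell by 0.60 (adjusted p = 0.0052) and FADD, the death domain adaptor, rose by 0.40 (adjusted p = 0.013). MAP3K5, the stress kinase ASK1, fell by 0.40 and CYLD, a deubiquitinase that limits NF-kB signalling, by 0.27 (adjusted p = 0.015 and 0.026). CYLD and TAB2, which fell by 0.24, lost their calls whichever array was left out, with adjusted p-values up to 0.091 and 0.11. RNF31 kept its call only without control replicate 1, and otherwise reached an adjusted p of up to 0.11. MAP3K5 lost its call without control replicate 2 or 3 or RKIP shRNA replicate 1 (up to 0.055) and FADD without control replicate 2 (0.053). A second FADD probe had a log2 change of 0.03.

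Of 13 measured NF-kB subunits, kinases and inhibitors 4 rose and 1 fell (limma, adjusted p under 0.05, median log2 change 0.19). That is 38.5% of them, against 20.2% of all genes and 29.0% of genes not dim in both groups. CHUK, the IKK alpha kinase, rose by 0.43 (SE 0.07, adjusted p = 0.0045), and MAP3K8, the TPL2 kinase that links toll-like receptors to ERK and TNF production, rose by 0.61 (SE 0.12, adjusted p = 0.011). NFKB1, which encodes p105 and p50, rose by 0.39, whereas NFKB2, which encodes p100 and p52, fell by 0.43 (adjusted p = 0.021 and 0.012). TBK1, a kinase upstream of IRF3, rose by 0.39 (adjusted p = 0.028). The transactivating subunit genes RELA and REL had changes of -0.05 and -0.18 that did not pass (adjusted p = 0.66 and 0.12). NFKB1 lost its call without control replicate 1 or 3 or RKIP shRNA replicate 1 or 3 (adjusted p up to 0.068), and TBK1 without control replicate 2 or 3 or RKIP shRNA replicate 1 or 3 (up to 0.090). The inhibitor genes NFKBIA and TNFAIP3 had no named row and were not analysed here.

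Of 9 measured other genes that NF-kB is known to induce 1 rose, 11.1% against 20.2% of all genes passing in either direction, and none fell. This was CD83, a surface marker of activated antigen-presenting cells, at 0.66 (SE 0.09, limma adjusted p = 0.0030). The adhesion gene ICAM1 had a change of 0.09 and the early response gene IER3 of 0.11 (adjusted p = 0.53 and 0.62), and 5 of the 9 were dim in both groups.

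Among 8 measured other inflammatory cytokines 1 rose and 1 fell (limma, adjusted p under 0.05), 25% against 20.2% of all genes. IL18, an interleukin processed by inflammasomes, fell by 1.39 (SE 0.12, limma adjusted p = 0.00060), opposite in sign to the 5 genes, from 7.08 ± 0.18 to 5.69 ± 0.13 (SD, n = 3). MIF, the macrophage migration inhibitory factor, rose by 0.43 (SE 0.08, adjusted p = 0.0082). IL1A, IL1B, IL6 and the rest of the 17 list entries without a named row were not analysed here.

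Receptors and adaptors that sense microbial products changed in both directions: 5 of 27 rose and 5 fell (limma, adjusted p under 0.05, median log2 change -0.07). That is 37.0% of them, against 20.2% of all genes and 29.0% of genes not dim in both groups. TLR4, the lipopolysaccharide receptor, rose by 1.25 (SE 0.09, adjusted p = 0.00044), while LY96, its co-receptor MD-2, fell by 0.55 between dim means (adjusted p = 0.0054). TLR9, the DNA receptor, rose by 0.54 and the signalling kinase gene IRAK1 by 0.42 (adjusted p = 0.0030 and 0.0055). Of the RNA sensor genes, TLR3 fell by 0.77, RIGI by 0.52 and IFIH1, which encodes MDA5, by 0.77 (adjusted p = 0.0018, 0.0034 and 0.012), while TLR7 and TLR8 were dim in both groups and did not pass. The DNA sensor gene CGAS rose by 0.31 (adjusted p = 0.020) but lost its call without control replicate 2 or 3 or RKIP shRNA replicate 1 or 2, at up to 0.075. RIPK2 and UNC93B1, the remaining calls, were lost in 5 of 6 such fits each and held only without RKIP shRNA replicate 3.

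Interferon-linked genes rose in 5 and fell in 2 of 23 measured cases (limma, adjusted p under 0.05, median log2 change 0.05). That is 30.4% of them, against 20.2% of all genes and 29.0% of genes not dim in both groups. IFIT1 and IFIT2, which bind foreign RNA, rose by 1.57 and 1.44 from dim control means (SE 0.14 and 0.15, adjusted p = 0.00069 and 0.0011). OASL rose by 0.77 and the ubiquitin-like modifier gene ISG15 by 0.40 (adjusted p = 0.0023 and 0.011). IRF2, a repressor of interferon genes, fell by 0.47 and the kinase gene JAK2 by 0.45 (adjusted p = 0.0048 and 0.023). IFIT3 rose by 0.94 but lost its call without control replicate 1 or 3 or RKIP shRNA replicate 2 (adjusted p up to 0.060), and JAK2 without control replicate 1 or 2 or RKIP shRNA replicate 1 (up to 0.080). Other interferon-stimulated genes did not pass, including MX2 and RSAD2, both dim in both groups at changes of 0.00 and -0.11.

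Regulators of AU-rich mRNA decay, which can set the stability of cytokine mRNAs, went both ways. Of 10 measured genes 2 were higher and 3 lower (limma, adjusted p under 0.05, median log2 change -0.05). That is 50% of them, against 20.2% of all genes and 29.0% of genes not dim in both groups. KHSRP, a protein that promotes decay of AU-rich mRNAs, rose by 0.39 (SE 0.06, adjusted p = 0.0055). XRN1, the 5′ to 3′ exonuclease, fell by 0.48 (SE 0.07, adjusted p = 0.0034), and TIAL1 and TIA1, which bind AU-rich elements and restrain translation, fell by 0.38 and 0.41 (adjusted p = 0.010 and 0.023). A second TIAL1 probe had a change of -0.12. RC3H1, which encodes roquin, rose by 0.31 (adjusted p = 0.034). RC3H1 kept its call only without RKIP shRNA replicate 1, and TIA1 only without RKIP shRNA replicate 3, with adjusted p-values of up to 0.10 and 0.081 in the other fits. ZFP36, which encodes tristetraprolin, had no named row and was not analysed here.

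Over the 9 lists together, 23 of 162 measured genes rose and 17 fell, with a median log2 change of 0.05. That is 24.7% of them, against 20.2% of all genes. Of the 106 that were not dim in both groups 36.8% passed, against 29.0% of all such genes. The count of higher genes was 15 without control replicate 3, and the count of lower genes was 11 without control replicate 2.

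**Figure D3:**
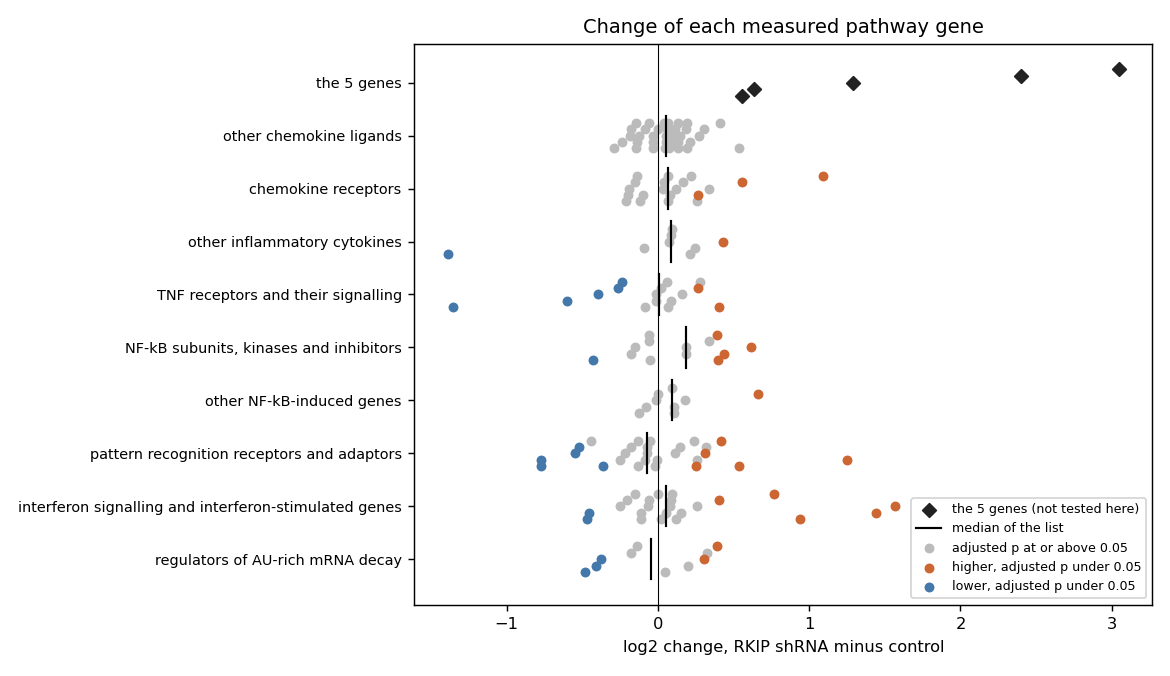
Log2 change, RKIP shRNA minus control (horizontal axis), of the 5 genes (diamonds) and of every measured gene in the 9 pathway lists (points, 1 row for each list; vertical scatter within a row has no meaning). Orange points are higher and blue points lower at a limma adjusted p under 0.05, grey points did not pass, and the bars are list medians. The medians lie between -0.07 and 0.19, and the chemokine ligand row is wholly grey.

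The genes with the pattern most like each of the 5 were found by the root mean square difference, over the 6 arrays, between deviations from each gene's own control mean. The search covered the 9667 genes with a mean of at least 4.08. Nearest to CXCL8 were MNDA, the myeloid nuclear antigen gene, at a distance of 0.32 log2 units, PRTN3, the granule protease proteinase 3, at 0.43, and LYZ, lysozyme, at 0.44. A second LYZ probe had a log2 change of 3.43, against 2.55 for the one used. Nearest to CXCL10 were TYROBP, a signalling adaptor of myeloid receptors, at 0.13, LYZ at 0.29 and HGF, the hepatocyte growth factor, at 0.32. These distances are larger than for the other 3 genes. CXCL8 and CXCL10 ranked 3 and 7 among the rises and had pooled SDs of 0.30 and 0.32, and the reason was not tested. TNF was nearest to TLR4 at 0.070, DOCK10 at 0.097 and FGFBP3 at 0.12. TLR4 and TNF had changes of 1.25 and 1.29 and shared RKIP shRNA replicate 3 as their highest array. CCL20 was nearest to YIF1A at 0.022, PDRG1 at 0.024 and SHMT1, a serine hydroxymethyltransferase, at 0.029. CCL5 was nearest to CALR, the chaperone calreticulin, at 0.026, MEN1 at 0.030 and ZNRD2 at 0.031. None of the 5 genes was among the 3 nearest of another. The distance is not scaled and follows the size of the change, so nothing about a shared pattern is read from this.

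**Figure D4:**
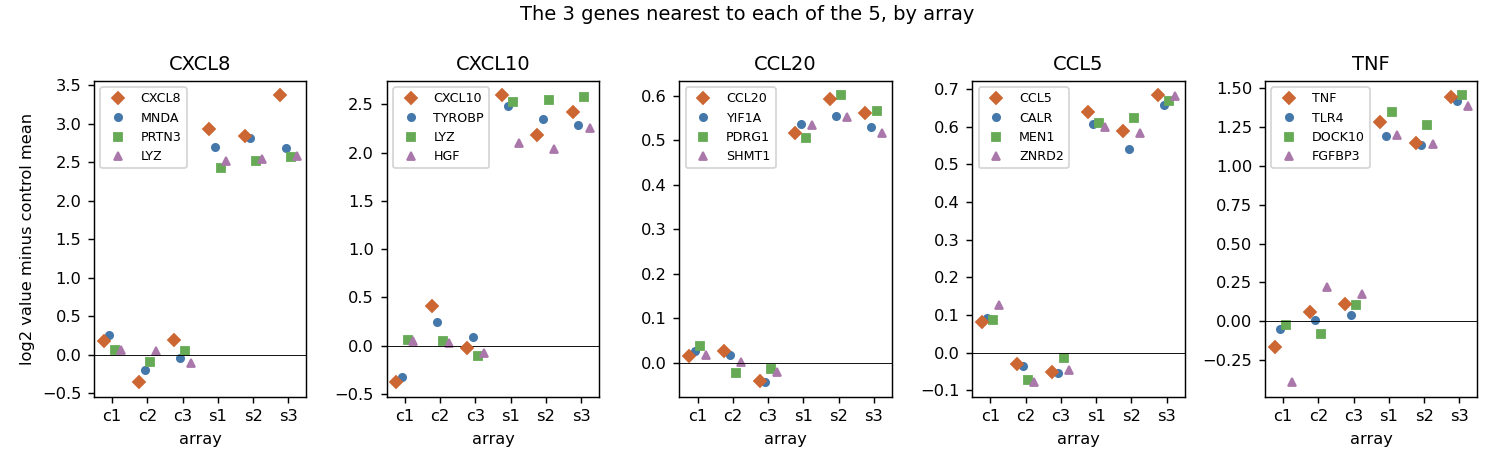
Log2 value minus the gene's control mean (vertical axis) in each array (c1 to c3, control replicates; s1 to s3, RKIP shRNA replicates) for each of the 5 genes (diamonds) and its 3 nearest genes (other symbols); the vertical scale differs between panels. TLR4 lies within 0.070 root mean square of TNF, whereas the nearest gene to CXCL8, MNDA, lies 0.32 away.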

How the data were processed

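Affymetrix Human Gene ST arrays were hybridised with 250 ng of total RNA each, per the labels and the series' design. The authors deposited 1 table of 53617 rows on a log2 scale, 1 column per array; the scale was read from its range, 0.72 to 14.0, and array medians of 4.06 to 4.10. How values were summarised and normalised, and on which genome build, is not given in the sources used here, and no detection call was used. The number of arrays limits the precision.

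The array annotation supplied with the series gave 1 symbol to 16098 rows and several to 0; 37519 rows stayed unnamed. For each of 14884 genes the probe with the highest 6-array mean was kept. RKIP shRNA was compared with control with limma 3.58.1 (lmFit, then eBayes; R 4.3.3; 7.01 total degrees of freedom, no filter), adjusted by Benjamini-Hochberg over all genes, threshold 0.05. Standard errors are limma's. The fit was tested on simulated data. No 2 arrays were duplicates (58 to 144 identical rows). No batch is labelled.

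The 5 genes, the 9 pathway lists (235 entries, 162 measured) and the marker lists were chosen with earlier results of these data known. Named genes were, per list and direction, up to 4 called genes in order of p (in a list without calls, the 2 of largest change) and the 3 nearest genes of each of the 5. Receptors and ligands sharing receptors with the 5, CCL19, SHARPIN, TAB2, RELA, REL, ICAM1, IER3, RIPK2, UNC93B1, IFIT3, MX2, RSAD2, TLR7, TLR8 and the markers were named outside this rule, after their values were seen. So were USP18, IRF9, IRF7 and IRF1. Promoters are RefSeq's in GRCh38.p14, and motifs were chosen from textbook knowledge with the 4 sequences in view. Array gene coordinates are not given, because the table's build is not named. Figures were drawn with matplotlib 3.10.9.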

Additional observations from a re-analysis of the deposited data

How the results depend on the processing

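The 5 genes were recomputed under quantile normalisation, median centring, array weights, a block for the replicate number, the mean of a gene's probes and with each array left out in turn. All kept their direction in these 11 alternatives, and all but 1 value moved by less than the SD within groups: CCL20 was 0.60 under quantile normalisation. Since the groups did not overlap, leaving out an array could not reverse a direction. The replicate block gave the same changes as the main fit, and the mean of probes could alter only TNF. The kept direction is therefore no independent support. Leaving out 1 array gave 2.87 to 3.15 for CXCL8, 2.21 to 2.61 for CXCL10, 0.54 to 0.58 for CCL20, 0.61 to 0.68 for CCL5 and 1.21 to 1.36 for TNF. The pathway genes that passed numbered 23 higher and 17 lower. At an adjusted p under 0.01 they numbered 10 and 8, and with 1 array left out 15 to 19 and 11 to 15. Of the 40, 25 passed whichever array was left out and 3 lost their call each time. With all rows of the table tested 16 were higher and 12 lower, and without genes of a mean under 4.08, 28 and 18. A trended and robust prior gave 29 and 20. No gene named among the lists and markers reversed under these alternatives while called. Replicate numbers did not show pairing, since deviations of arrays with the same number correlated at -0.02 to 0.02 across genes; with the replicate block 17 pathway genes were higher and 13 lower. The number of arrays and the dimness of many chemokine genes limit what could be detected.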
